A study of Mus musculus with 6 samples.

Results

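The genes described here are 32 genes of glycolysis and of the response to low oxygen, named by a list of their symbols and read in all 6 libraries of the study. The list held glycolytic enzymes, glucose and lactate transporters, regulators of the hypoxia-inducible factor HIF, and HIF targets. All 32 were found among the 24016 genes of the deposited table. The libraries came from basal cells of the mouse esophageal epithelium, 3 labelled Krt15-positive and 3 labelled Krt15-negative. All mice carried the transgene Krt15-CrePR1 and the reporter R26mTomato/mGFP. In this model the Krt15 promoter drives a Cre recombinase that RU486 (mifepristone) activates, and recombined cells turn on membrane GFP. Both groups came from mice that received 1 mg of RU486 and were sorted 24 h later on high CD29 (integrin beta-1). The Krt15-positive cells were GFP-positive and the Krt15-negative cells GFP-negative, so a Krt15-expressing cell without recombination falls in the Krt15-negative gate. The sources used here do not give the mice's age, sex or number, or whether animals were pooled.

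Glycolysis splits glucose into pyruvate in the cytosol. Glucose enters through transporters such as GLUT1, and hexokinase and phosphofructokinase set the pace of the upper steps. Lactate dehydrogenase turns pyruvate into lactate, which leaves through monocarboxylate transporters. When oxygen is ample, prolyl hydroxylases of the Egln family mark the HIF alpha subunits, and the VHL protein then directs them to degradation. When oxygen is low, HIF accumulates and raises transcription of glycolytic enzymes, Slc2a1, Vegfa, Bnip3 and the Egln genes themselves. HIF binds short elements with the core ACGTG or GCGTG, often near the gene start. The esophageal epithelium has no vessels of its own, and its basal layer lies next to the vascularised lamina propria.

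None of the 32 genes passed the test between Krt15-positive and Krt15-negative cells. The genes with the widest separation were Bnip3 and Slc2a1, both with higher values in all 3 Krt15-positive libraries than in any Krt15-negative one, followed by P4ha1. The abundant enzymes of the pathway had overlapping values in the groups, with a spread within each group wider than the gap between their means.

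The promoters of those 3 genes are shown because all 3 separated the groups in the same direction and are HIF targets in the textbook sense. Each sequence covers the 250 bases before the annotated gene start, 5′ to 3′ on the gene's strand, from RefSeq on GRCm38.p6. Bnip3 lies at chr7:138909507-138909756 on the minus strand, Slc2a1 at chr4:119108495-119108744 on the plus strand and P4ha1 at chr10:59323046-59323295 on the plus strand. Capitals mark ACGTG or GCGTG on either strand, so that CACGT and CACGC are the same cores read from the other strand.
Bnip3: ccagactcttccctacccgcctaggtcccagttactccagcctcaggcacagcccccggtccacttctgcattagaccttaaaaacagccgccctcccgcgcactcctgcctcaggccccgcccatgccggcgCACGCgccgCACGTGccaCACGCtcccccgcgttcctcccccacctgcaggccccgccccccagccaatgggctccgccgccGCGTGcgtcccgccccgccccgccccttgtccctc
Slc2a1: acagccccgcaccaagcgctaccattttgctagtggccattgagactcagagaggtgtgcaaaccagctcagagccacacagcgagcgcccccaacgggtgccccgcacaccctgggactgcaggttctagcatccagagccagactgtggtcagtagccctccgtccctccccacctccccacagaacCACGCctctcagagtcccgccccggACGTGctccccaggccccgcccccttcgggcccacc
P4ha1: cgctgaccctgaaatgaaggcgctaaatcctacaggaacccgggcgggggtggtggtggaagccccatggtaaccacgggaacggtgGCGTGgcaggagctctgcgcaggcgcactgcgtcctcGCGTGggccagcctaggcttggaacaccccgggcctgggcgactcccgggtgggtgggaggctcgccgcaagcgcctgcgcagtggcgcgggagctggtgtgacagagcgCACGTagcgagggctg

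In the Bnip3 window the 2 matches to ACGTG are the 2 strands of 1 palindrome, CACGTG, which is also an E-box, a motif bound by other factors. The first of them begins 108 bases before the start (position -108), between matches to GCGTG at -117 and -99, and another stands at -35. Slc2a1 holds 1 ACGTG at -36 and 1 GCGTG at -61. P4ha1 holds 1 ACGTG at -16 and GCGTG at -163 and -126. Such matches were not limited to the genes that separated the groups. Ankrd37, whose difference lay below 0 (given further below), holds ACGTG at -241 and -6 and GCGTG at -155 and -152. Aldoa, Hk2 and Pgk1, whose groups overlapped, hold ACGTG as well. Promoters were found for 29 of the 32 genes, in 39 windows because some genes have several starts. Bnip3l, Ndrg1 and Ero1l were not matched. ACGTG stood in 19 of the 39 windows (48.7%), against 16.6% of all 32851 promoter windows of that length. Outside CACGTG it stood in 17 (43.6%), against 11.4%. GCGTG stood in 20 (51.3%), against 28.2%. These are matches of letters and not measured binding sites. They describe a set of genes chosen partly as HIF targets.

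The values are FPKM, fragment numbers scaled to transcript length and to the mapped fragments of the library, so levels can be compared between genes. Depth was estimated from the FPKM step that 1 fragment makes, at about 27600000, 34100000 and 29900000 fragments in the Krt15-positive libraries and 29000000, 41600000 and 39600000 in the Krt15-negative ones. The libraries nevertheless differed in how many genes they detected. Among the 9423 genes whose mean over the 6 libraries reached 1 FPKM, 6.16 to 16.5% were listed at 0 in the Krt15-positive libraries, against 42.4, 20.5 and 9.31% in Krt15-negative replicates 1, 2 and 3. The Krt15-negative replicate 1 library thus stood apart, and values with and without it are given below. All 7 basal keratinocyte markers, among them Krt5, Krt14 and Trp63, reached 1 FPKM in every library except Krt15-negative replicate 1, where Trp63 stood at 0.46 FPKM. Their summed level was 5678, 14081 and 3849 FPKM in Krt15-positive libraries, against 3909, 11094.5 and 5263 FPKM in Krt15-negative ones. In every library that was less than the summed level of 6 suprabasal keratinocyte markers, given further below. Krt15 itself, whose promoter drives the Cre used for the sort, stood at 3350, 9692 and 2420 FPKM in Krt15-positive libraries, against 2350, 6784 and 3412 FPKM in Krt15-negative ones, so its RNA did not separate the groups. The endothelial markers Cdh5 and Emcn were listed at 0 in all 6 libraries. An exact 0 may be a failed estimate, since Tbp, a transcription factor that every cell uses, was listed at 0 in Krt15-negative replicates 1 and 2. For a gene listed at 0 anywhere, the values are therefore given per library without a mean. Values just above 0 carry the same doubt. Polr2a, another gene that every cell uses, stood at 5.17, 1.00 and 1.49 FPKM in Krt15-positive libraries. In Krt15-negative ones it stood at 0.0058, 0.0103 and 0.0182 FPKM. Polr2a thus separated the groups in the same direction as Slc2a1 and Bnip3. Fewer cells with a transcript and less transcript per cell cannot be told apart in bulk libraries.

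Differences are Krt15-positive minus Krt15-negative on the log2(FPKM + 1) scale, tested with limma over the 9423 genes, with p-values adjusted by the Benjamini-Hochberg method. Of the 32 genes, 29 reached the mean of 1 FPKM and were tested. Pfkfb3, Slc16a3 and Car9 were not. At an adjusted p below 0.05, 0 of the 29 were called, against 0% of all genes, and the smallest adjusted p among them was 0.79. At an unadjusted p below 0.05, 2 of 29 lay higher (6.90%; Bnip3 and Slc2a1), against 3.18% of all genes, and 0 lay lower, against 0.743%. Over all genes that was 300 higher and 70 lower, and with quantile normalization 121 higher and 178 lower. For 3 of the 29 genes (10.3%) all Krt15-positive values lay above the Krt15-negative ones, against 8.85% of all genes. None had them all below, against 2.44%. The difference was above 0 for 19 of 29 genes (65.5%), against 68.6% of all genes, and the median difference was 0.58, against 0.63 over all genes. The counts for these genes are thus close to those for all genes. A gene that reached the mean through 1 group alone, such as Vhl or Pdk1, had to differ, so these counts only describe.

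**Figure D1:**
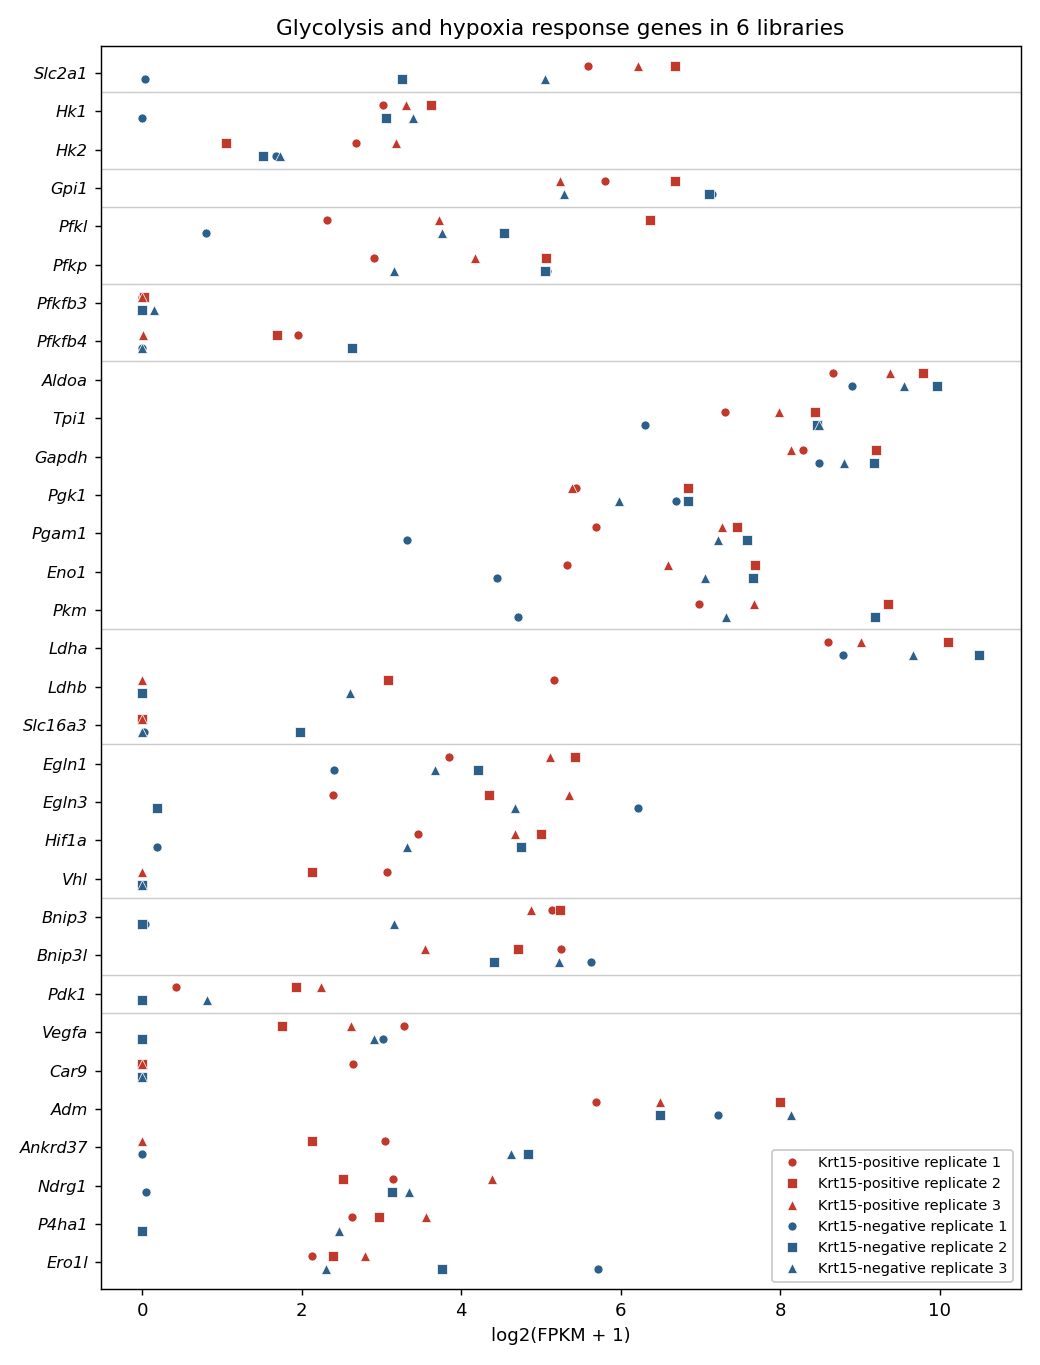
Level of each of the 32 genes on the x axis, as log2(FPKM + 1), with 1 row per gene ordered by role and 1 point per library. Krt15-positive libraries are red and lie above the blue Krt15-negative ones in each row. Slc2a1, Bnip3 and P4ha1 are the 3 tested genes whose colours do not overlap, and Ldha, Aldoa and Gapdh lie furthest to the right.

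Slc2a1 encodes GLUT1, the main glucose transporter of keratinocytes. It stood at 47.1, 101.5 and 73.6 FPKM in Krt15-positive replicates 1 to 3, against 0.0271, 8.53 and 32.1 FPKM in Krt15-negative replicates 1 to 3. Every Krt15-positive value lay above every Krt15-negative one, and the lowest Krt15-negative value corresponded to an estimated 2.57 fragments. The means were 74.1 ± 27.2 FPKM in Krt15-positive and 13.5 ± 16.6 FPKM in Krt15-negative libraries (SD, n = 3 each). The difference was 3.38 (SE 1.30, 95% CI 0.55 to 6.22, limma adjusted p = 0.79). It was 2.01 without Krt15-negative replicate 1 and 1.65 with library weights. Slc2a1 shares exon sequence with a gene on the other strand, and the library kit does not mark strand. In rank among the 9423 genes, Slc2a1 lay between the 83.4 and 88.2 percentile of the Krt15-positive libraries and at the 53.1, 48.6 and 76.7 percentile of the Krt15-negative ones. The 53.1 percentile belongs to 0.0271 FPKM in Krt15-negative replicate 1. It stands above the 42.4% of genes listed at 0 there, so that rank does not show a middle level.

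Hexokinase traps glucose in the cell as glucose 6-phosphate. Hk1, the widely expressed isoform, stood at 7.11, 11.2 and 8.89 FPKM in Krt15-positive libraries and was listed at 0, 7.28 and 9.51 FPKM in Krt15-negative ones. The groups overlapped, and the difference between them, 1.16 (SE 1.24, limma adjusted p = 0.81) was 0.091 without Krt15-negative replicate 1. Hk2, the inducible isoform and a HIF target, stood at 5.43, 1.07 and 8.04 FPKM in Krt15-positive libraries, against 2.19, 1.86 and 2.32 FPKM in Krt15-negative ones. Its Krt15-positive values lay on both sides of all the Krt15-negative ones, and the difference was 0.66 (SE 1.08, limma adjusted p = 0.88), or -0.55 with quantile normalization. The log2 ratio of Hk2 to Hk1 within a library was -0.34, -2.56 and -0.13 in Krt15-positive libraries and 1.68, -1.54 and -1.66 in Krt15-negative ones (exact 2-sided permutation p = 0.80, where 3 against 3 cannot go below 0.10). Hk2 was thus above Hk1 in Krt15-negative replicate 1, where Hk1 was listed at 0, and below it in the other 5 libraries.

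Gpi1, glucose phosphate isomerase, stood at 55.1, 102 and 36.8 FPKM in Krt15-positive libraries, against 141, 137 and 38.3 FPKM in Krt15-negative ones (difference -0.61, SE 0.86, limma adjusted p = 0.85). Phosphofructokinase commits sugar to glycolysis. Its liver-type subunit gene Pfkl stood at 3.97, 81.8 and 12.2 FPKM in Krt15-positive libraries, against 0.738, 22.2 and 12.5 FPKM in Krt15-negative ones. The platelet-type subunit gene Pfkp stood at 6.52, 32.4 and 17.1 FPKM in Krt15-positive libraries, against 32.7, 32.2 and 7.91 FPKM in Krt15-negative ones. The groups overlapped for both subunits, with differences of 1.11 for Pfkl (SE 1.41) and -0.38 for Pfkp (SE 1.10, or 0.42 with library weights). Pfkl turned to -0.011 without Krt15-positive replicate 2 and to -0.0098 without Krt15-negative replicate 1. The log2 ratio of Pfkp to Pfkl within a library was 0.60, -1.31 and 0.45 in Krt15-positive libraries and 4.28, 0.52 and -0.60 in Krt15-negative ones (exact 2-sided permutation p = 0.50). Neither subunit was the higher one in every library of a group.

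The PFKFB enzymes make fructose 2,6-bisphosphate, the activator of phosphofructokinase, and both genes are HIF targets. Pfkfb3 was close to undetected: it reached 0.107 FPKM in Krt15-negative replicate 3 and 0.0118 FPKM in Krt15-positive replicate 2 and was listed at 0 elsewhere. Pfkfb4 stood at 2.86, 2.21 and 0.00978 FPKM in Krt15-positive libraries, against 5.17 FPKM in Krt15-negative replicate 2 and 0 in Krt15-negative replicates 1 and 3. Its difference of 0.34 (SE 1.04) turned to -0.050 with quantile normalization. The log2 ratio of Pfkfb3 to Pfkfb4 was -1.95, -1.67 and -0.014 in Krt15-positive libraries and 0, -2.63 and 0.15 in Krt15-negative ones (exact 2-sided permutation p = 0.80).

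The 7 genes of the lower pathway were abundant in all 6 libraries, and none separated the groups. Aldoa, which encodes aldolase A, stood at 404, 889 and 664 FPKM in Krt15-positive libraries, against 478, 999 and 751 FPKM in Krt15-negative ones. Its means of 652 ± 243 FPKM in Krt15-positive and 743 ± 260 FPKM in Krt15-negative libraries (SD, n = 3 each) differed by less than the replicate spread (difference -0.20, SE 0.45, 95% CI -1.19 to 0.79, or 0.035 with quantile normalization). Gapdh, the dehydrogenase of the first oxidation step, stood at 313, 588 and 280 FPKM in Krt15-positive libraries, against 359, 579 and 444 FPKM in Krt15-negative ones (difference -0.28, SE 0.49, 95% CI -1.36 to 0.80). The intervals of these genes were the narrowest among the 14 enzymes tested. Pgk1, phosphoglycerate kinase of the first ATP-yielding step, stood at 42.3, 114 and 40.8 FPKM in Krt15-positive libraries, against 102, 114 and 62.3 FPKM in Krt15-negative ones (difference -0.62, SE 0.81).

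Tpi1, triose phosphate isomerase, stood at 158, 344 and 253 FPKM in Krt15-positive libraries, against 77.9, 351 and 356 FPKM in Krt15-negative ones. Pgam1, phosphoglycerate mutase, stood at 50.8, 175 and 153 FPKM in Krt15-positive libraries, against 9.01, 192 and 148 FPKM in Krt15-negative ones. The enolase gene Eno1 stood at 39.1, 205 and 95.6 FPKM in Krt15-positive libraries, against 20.9, 201 and 132 FPKM in Krt15-negative ones. Its near-identical copy Eno1b, which is not among the 32 genes, stood at 182, 796 and 455 FPKM in Krt15-positive libraries, against 55.2, 963 and 490 FPKM in Krt15-negative ones (difference 0.44, SE 0.94). Eno1b was thus 2.64 to 4.80 times Eno1 in each library, and how reads were shared between them is uncertain. For Tpi1, Pgam1 and Eno1 the lowest library of each group was replicate 1, and the Krt15-negative replicate 1 library was the lowest of all. Pkm, which encodes the pyruvate kinases PKM1 and PKM2, showed the same order, with 125, 654 and 202 FPKM in Krt15-positive libraries, against 25.3, 581 and 159 FPKM in Krt15-negative ones. The differences were 0.16 for Tpi1 (SE 0.71), 0.76 for Pgam1 (SE 1.12), 0.15 for Eno1 (SE 1.00) and 0.93 for Pkm (SE 1.04), with limma adjusted p between 0.82 and 0.97. Without Krt15-negative replicate 1 all 4 turned below 0, to -0.56, -0.60, -0.82 and -0.25. Tpi1 and Eno1 were also below 0 with upper-quartile scaling (-0.30 each) and median-of-ratios scaling (-0.33 each), and with library weights Tpi1, Pgam1 and Eno1 were (-0.48, -0.35 and -0.53).

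The summed level of the 14 enzyme genes from hexokinase to lactate dehydrogenase was 1633, 4307 and 2285 FPKM in Krt15-positive libraries and 1693, 4654 and 2940 FPKM in Krt15-negative ones. That was 0.195, 0.600 and 0.323% of all FPKM in Krt15-positive libraries, against 0.159, 0.610 and 0.356% in Krt15-negative ones. In both groups replicate 2 had the highest sum and replicate 1 the lowest, and the spread within a group was wider than the gap between groups. Libraries of the same number may be paired, as described at the end. With Eno1b added the sums were 1815, 5103 and 2741 FPKM in Krt15-positive libraries, against 1748, 5617 and 3430 FPKM in Krt15-negative ones. Other enzymes, Gapdh and Ldha among them, have near-identical pseudogene copies, and the authors' counting may have split reads with them.

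**Figure D2:**
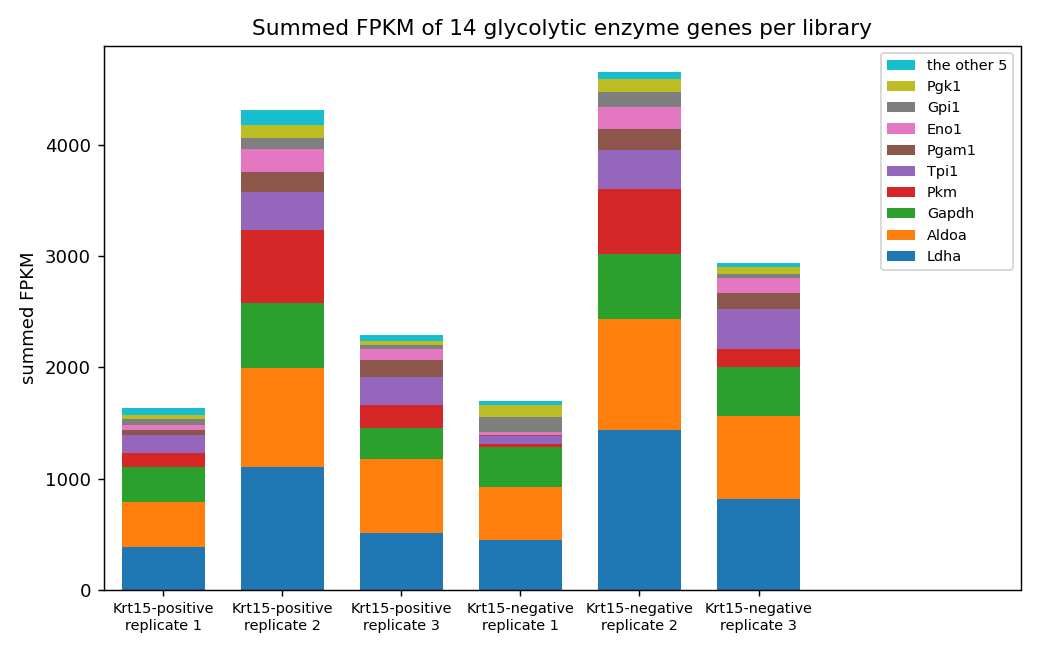
Summed FPKM (y axis) of 14 glycolytic enzyme genes in each library, stacked by gene, with Krt15-positive libraries on the left. The top segment holds Hk1, Hk2, Pfkl, Pfkp and Ldhb together. Bars reach 1633, 4307 and 2285 FPKM in Krt15-positive and 1693, 4654 and 2940 FPKM in Krt15-negative libraries, and Ldha and Aldoa make up the lowest and widest segments.

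Ldha, whose subunit favours making lactate from pyruvate, was the most abundant of the 32 genes by mean. It stood at 388, 1103 and 514 FPKM in Krt15-positive libraries, against 443, 1438 and 811 FPKM in Krt15-negative ones (668 ± 382 FPKM on average in Krt15-positive and 898 ± 503 FPKM in Krt15-negative libraries, SD, n = 3 each). The groups overlapped (difference -0.41, SE 0.53, 95% CI -1.57 to 0.75, limma adjusted p = 0.84). Ldhb, whose subunit favours the reverse reaction, stood at 34.8 and 7.48 FPKM in Krt15-positive replicates 1 and 2 and was listed at 0 in replicate 3. In Krt15-negative libraries it stood at 5.10 FPKM in replicate 3 and was listed at 0 in the other two. Ldha made up 91.8, 99.3 and 100% of the FPKM of both genes in Krt15-positive libraries, against 100, 100 and 99.4% in Krt15-negative ones. The log2 ratio of Ldha to Ldhb was 3.44, 7.02 and 9.01 in Krt15-positive libraries and 8.79, 10.49 and 7.06 in Krt15-negative ones (exact 2-sided permutation p = 0.40), with a difference of -2.29 that was -0.76 without Krt15-positive replicate 1. Slc16a3, which encodes the lactate exporter MCT4, was listed at 0 in all 3 Krt15-positive libraries and stood at 0.0147, 2.93 and 0 FPKM in Krt15-negative ones.

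Hif1a encodes the HIF-1 alpha subunit, which is controlled mainly through degradation of the protein. Its RNA stood at 9.99, 31.1 and 24.4 FPKM in Krt15-positive libraries, against 0.136, 26.0 and 9.02 FPKM in Krt15-negative ones. The groups overlapped, and the difference of 1.62 (SE 1.33, 95% CI -1.28 to 4.53, limma adjusted p = 0.79) was 0.34 without Krt15-negative replicate 1. Hif1a, too, shares exon sequence with another gene on the other strand. Egln1 encodes PHD2, the main oxygen-dependent prolyl hydroxylase. It stood at 13.4, 42.1 and 33.5 FPKM in Krt15-positive libraries, against 4.27, 17.5 and 11.7 FPKM in Krt15-negative ones (29.7 ± 14.7 FPKM on average in Krt15-positive and 11.2 ± 6.63 FPKM in Krt15-negative libraries, SD, n = 3 each). The Krt15-positive replicate 1 value lay below the highest Krt15-negative one, and the difference was 1.37 (SE 1.07, limma adjusted p = 0.79), or 0.86 without Krt15-negative replicate 1. Between libraries of the same number, which may be paired, Egln1 was higher in the Krt15-positive one by 1.45, 1.22 and 1.44. How many of all genes keep 1 direction in this way was not counted. Egln3, which encodes the HIF-inducible hydroxylase PHD3, stood at 4.23, 19.3 and 39.9 FPKM in Krt15-positive libraries, against 73.7, 0.134 and 24.5 FPKM in Krt15-negative ones. Its highest and its lowest value were both Krt15-negative. Its difference of 0.34 (SE 1.55) turned to -0.29 with upper-quartile scaling, -0.23 with median-of-ratios scaling and -0.33 with quantile normalization. The log2 ratio of Egln3 to Egln1 was -1.46, -1.09 and 0.25 in Krt15-positive libraries and 3.83, -4.03 and 1.01 in Krt15-negative ones (exact 2-sided permutation p = 0.70).

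Vhl, the substrate receptor of the ubiquitin ligase for HIF, stood at 7.43 and 3.36 FPKM in Krt15-positive replicates 1 and 2 and was listed at 0 in Krt15-positive replicate 3 and in all Krt15-negative libraries (difference 1.73, SE 0.95, limma adjusted p = 0.79). No Krt15-negative library therefore had a Vhl value, yet the groups still touched at 0.

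BNIP3 and its paralog BNIP3L, also called NIX, sit in the outer mitochondrial membrane and recruit the autophagy machinery, and both are HIF targets. Bnip3 stood at 34.2, 36.8 and 28.5 FPKM in Krt15-positive libraries, against 0.0204, 0 and 7.91 FPKM in Krt15-negative ones. The Krt15-positive values were close to each other and all above the Krt15-negative ones, of which 1 was listed at 0 and 1 corresponded to an estimated 1.04 fragments. The highest Krt15-negative value rested on an estimated 550 fragments and the Krt15-positive values on an estimated 1650, 2200 and 1500. The difference was 4.02 (SE 1.22, 95% CI 1.35 to 6.70, limma adjusted p = 0.79), the largest of the 29. It was 3.51 without Krt15-negative replicate 1, 2.63 with library weights, 2.47 with a pseudocount of 5 and 6.17 with a pseudocount of 0.1. Bnip3 shares exon sequence with a gene on the other strand, so reads of the 2 genes cannot be told apart within the shared stretch, whose length was not measured.

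The values of Bnip3l overlapped between the groups. Bnip3l stood at 37.3, 25.2 and 10.7 FPKM in Krt15-positive libraries, against 48.6, 20.3 and 36.4 FPKM in Krt15-negative ones (24.4 ± 13.3 FPKM on average in Krt15-positive and 35.1 ± 14.2 FPKM in Krt15-negative libraries, SD, n = 3 each, difference -0.58, SE 0.98, limma adjusted p = 0.88). The difference lay between -0.10 without Krt15-positive replicate 3 and -0.96 without Krt15-positive replicate 1. The log2 ratio of Bnip3 to Bnip3l within a library, which a scaling of the library moves only through the pseudocount, was -0.12, 0.53 and 1.33 in Krt15-positive libraries. It was -5.60, -4.41 and -2.07 in Krt15-negative ones. The groups did not overlap, and the difference was 4.61 (exact 2-sided permutation p = 0.10, the smallest that 3 against 3 allow). Leaving out 1 library moved it between 3.82 and 5.58. Of the 6 ratios compared, this was the only one without overlap, and its p was 0.60 after adjustment over the 6.

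**Figure D3:**
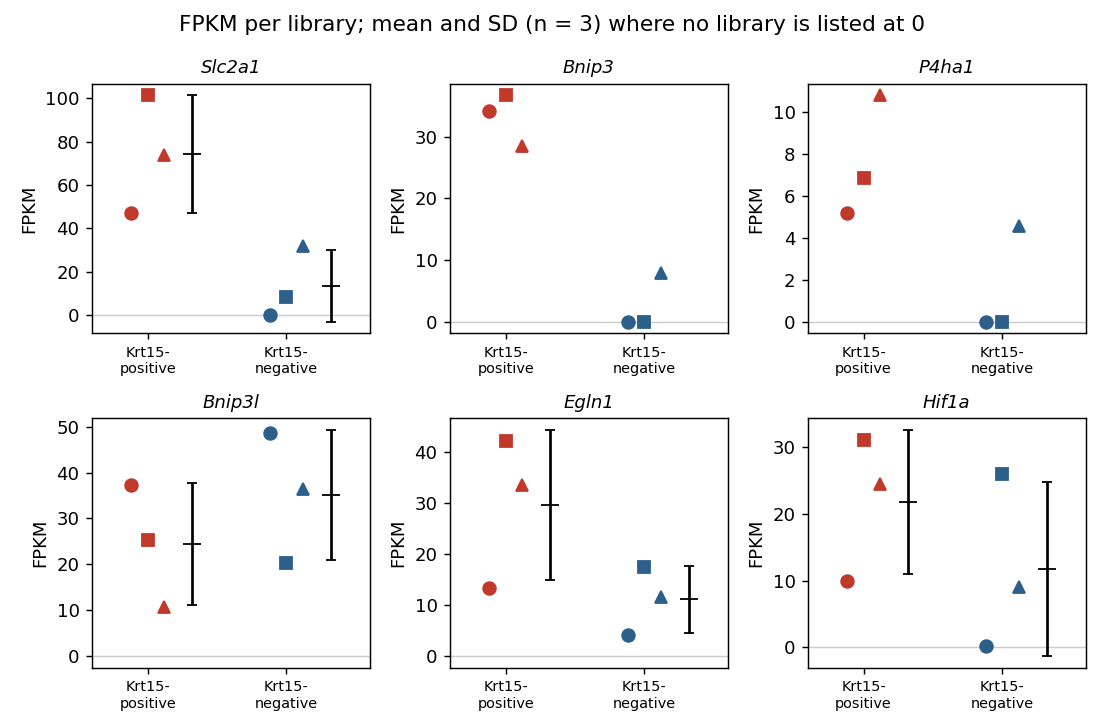
FPKM (y axis) of 6 genes per library, Krt15-positive in red at the left of each panel and Krt15-negative in blue at the right, with circles, squares and triangles for replicates 1, 2 and 3. Horizontal ticks and bars give the mean and SD (n = 3) in panels where no library is listed at 0. Slc2a1, Bnip3 and P4ha1 in the top row do not overlap between groups, and Bnip3l, Egln1 and Hif1a in the bottom row do.

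P4ha1 encodes a subunit of the prolyl 4-hydroxylase that modifies collagen. It stood at 5.18, 6.85 and 10.8 FPKM in Krt15-positive libraries, and in Krt15-negative ones it was listed at 0 in replicates 1 and 2 and stood at 4.55 FPKM in replicate 3. The groups did not overlap, although the lowest Krt15-positive and the highest Krt15-negative value were close. The difference was 2.23 (SE 1.13, 95% CI -0.25 to 4.71, limma adjusted p = 0.79). It was 1.05 with library weights, 1.00 with a pseudocount of 5, 4.36 with a pseudocount of 0.1 and 1.46 with quantile normalization, and leaving out 1 library moved it between 1.82 and 3.05. Pdk1, which encodes a kinase that keeps pyruvate out of the mitochondrial acetyl-CoA route, stood at 0.341, 2.80 and 3.72 FPKM in Krt15-positive libraries, against 0, 0 and 0.759 FPKM in Krt15-negative ones (difference 1.26, SE 0.88). Pdk1 reached the mean of 1 FPKM only through the Krt15-positive libraries, so it had to differ and its values only describe. Ndrg1, a stress-responsive gene of differentiating cells, stood at 7.87, 4.70 and 19.9 FPKM in Krt15-positive libraries, against 0.0360, 7.79 and 9.12 FPKM in Krt15-negative ones. Its difference of 1.17 (SE 1.27) was 0.11 without Krt15-negative replicate 1.

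Vegfa, the vascular growth factor gene, stood at 8.71, 2.38 and 5.11 FPKM in Krt15-positive libraries, against 7.08, 0 and 6.50 FPKM in Krt15-negative ones (difference 0.58, SE 1.22). Its difference turned to -0.48 with quantile normalization and to -0.41 without Krt15-negative replicate 2. Adm, which encodes the vasodilator peptide adrenomedullin, had the highest mean of the 7 genes listed here as other HIF targets, at 50.5, 255 and 89.3 FPKM in Krt15-positive libraries, against 148, 89.2 and 279 FPKM in Krt15-negative ones (difference -0.55, SE 0.80, between -0.034 without Krt15-positive replicate 1 and -1.19 without Krt15-positive replicate 2). Car9, carbonic anhydrase 9, was listed at 0 in every library except Krt15-positive replicate 1, at 5.22 FPKM.

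The differences of Ero1l and Ankrd37 lay below 0, as did that of Adm. Ero1l, an oxidase of the endoplasmic reticulum, stood at 3.38, 4.24 and 5.93 FPKM in Krt15-positive libraries, against 51.8, 12.5 and 3.93 FPKM in Krt15-negative ones (4.51 ± 1.30 FPKM on average in Krt15-positive and 22.7 ± 25.5 FPKM in Krt15-negative libraries, SD, n = 3 each). Its difference of -1.49 (SE 1.20, limma adjusted p = 0.79) was -0.59 without Krt15-negative replicate 1, which held the highest value. Ankrd37, an ankyrin-repeat gene induced by HIF, stood at 7.21, 3.38 and 0 FPKM in Krt15-positive libraries, against 0, 27.7 and 23.6 FPKM in Krt15-negative ones. Its difference of -1.43 (SE 1.50, limma adjusted p = 0.81) was -3.01 without Krt15-negative replicate 1, where it was listed at 0. Of P4ha1, Ndrg1, Vegfa, Adm, Ero1l and Ankrd37, 3 thus lay above 0 and 3 below.

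**Figure D4:**
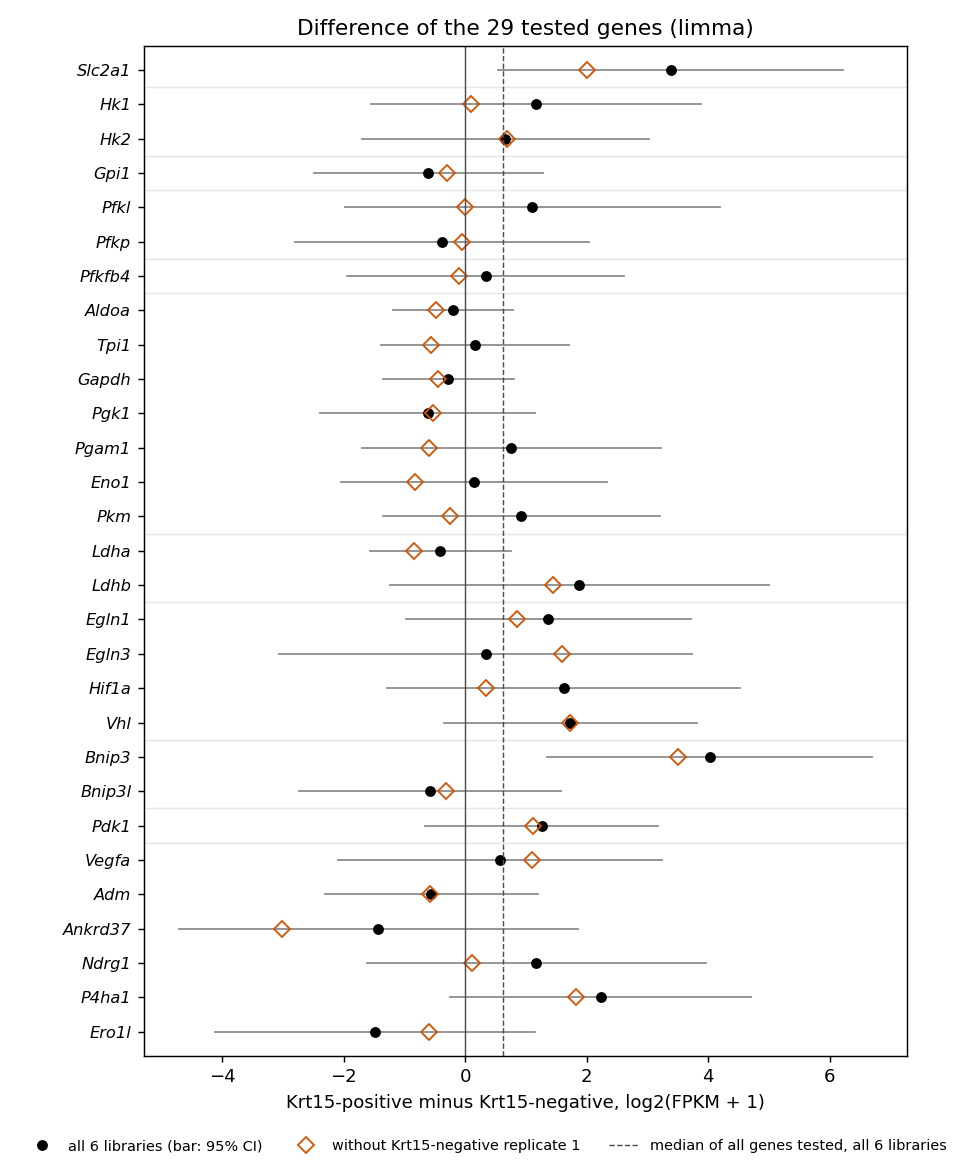
Difference between Krt15-positive and Krt15-negative libraries (x axis, log2(FPKM + 1), Krt15-positive minus Krt15-negative) for the 29 tested genes, in rows ordered by role. Black points and grey bars are the limma estimate and its 95% CI with all 6 libraries, and orange diamonds the estimate without Krt15-negative replicate 1. The dashed line is the median of all genes tested, 0.63. Only the intervals of Slc2a1 and Bnip3 lie above 0, before adjustment for multiple tests.

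Markers of other cells differed between the groups beside these values. Of 8 fibroblast markers, 1 (Dcn, a matrix proteoglycan) reached 1 FPKM in each Krt15-positive library, against 6, 6 and 8 in the Krt15-negative ones, and their summed level was 71.2 to 176 FPKM in Krt15-positive libraries, against 104 to 753 FPKM in Krt15-negative ones. The fibroblast markers Col1a2, Lum and Pdgfra were listed at 0 in all 3 Krt15-positive libraries. In Krt15-negative ones Col1a2 stood at 0.581, 7.93 and 15.9 FPKM. Lum stood there at 2.55, 0 and 63.8 FPKM, and Pdgfra at 0, 0 and 1.57 FPKM. Of 6 leukocyte markers, 0, 4 and 1 reached 1 FPKM in Krt15-positive libraries, against 1, 5 and 4 in Krt15-negative ones, and their summed level was 0.67 to 36.5 FPKM in Krt15-positive libraries, against 142 to 493 FPKM in Krt15-negative ones. The summed level of 6 suprabasal keratinocyte markers was 8738, 23386 and 51141 FPKM in Krt15-positive libraries, against 36528, 30938 and 7393 FPKM in Krt15-negative ones. Krtdap alone stood at 7254, 13640 and 41287 FPKM in Krt15-positive libraries, against 33634, 22532 and 0 FPKM in Krt15-negative ones. The sum of Krt15-negative replicate 3 thus rests on a Krtdap value of exact 0, which may be a failed estimate. In that library Krt4 and Krt13 stood at 3678 and 3278 FPKM. Muscle, endothelial and erythroid markers each summed to at most 4.05 FPKM in any library. The part of these cells, or of the number of genes listed at 0, in the values of Slc2a1, Bnip3 and P4ha1 was not tested.

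A wider set of 123 genes in 5 lists (other glycolysis genes, HIF machinery, other HIF targets, pyruvate entry into mitochondria, and mitophagy partners of Bnip3) gave no call either. Of these, 81 were tested, 62 of them with a difference above 0 (76.5%, against 68.6% of all genes), and 1 lay higher at an unadjusted p below 0.05, against 3.18% of all genes. Without Krt15-negative replicate 1, 44 of the 81 lay above 0 (54.3%), against 50.9% of all genes. The gene at an unadjusted p below 0.05 was Kdm4c, a histone demethylase, at 3.63, 12.4 and 12.2 FPKM in Krt15-positive libraries, against 0.896, 0 and 0 FPKM in Krt15-negative ones (difference 2.92, SE 1.04, limma adjusted p = 0.79). Kdm4c reached the mean of 1 FPKM only through the Krt15-positive libraries, so it had to differ and its values only describe. The same holds for Pfkm, Eno3, Galm, Epas1 and Pdk2 below, and for Ldhd through the Krt15-negative libraries. Of the other HIF targets, Kdm4b, Mxi1, Gys1, Gbe1, Rora and Narf also reached that mean only through the Krt15-positive libraries. The counts and medians of that list therefore only describe. Among the other HIF targets, 18 of 21 lay above 0 (85.7%, against 68.6% of all genes), with a median difference of 1.19, against 0.63 over all genes. Without Krt15-negative replicate 1, 15 lay above 0 with a median of 0.58, against 0.021 over all genes. The next smallest p values above 0 were those of Tfrc, the transferrin receptor gene (4.51, 4.05 and 15.5 FPKM in Krt15-positive libraries, 0.0069, 0 and 6.52 FPKM in Krt15-negative ones), and Angptl4, an angiopoietin-like gene (12.3, 28.3 and 30.6 FPKM in Krt15-positive libraries, 0.075, 21.6 and 6.37 FPKM in Krt15-negative ones). Without Krt15-negative replicate 1 the difference of Angptl4, 2.03, was 0.84. The 3 genes of this list below 0 were Mif, a cytokine gene with pseudogene copies (difference -0.44, SE 0.24), Higd1a (-0.64, SE 0.63), and Fam162a. Fam162a, a mitochondrial HIF target, was more abundant than Ldha in all 6 libraries, at 1353, 1358 and 1947 FPKM in Krt15-positive libraries, against 1215, 1759 and 2164 FPKM in Krt15-negative ones (difference -0.12, SE 0.31).

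In the wider HIF machinery list, 8 of 13 tested genes lay above 0 (61.5%, against 68.6% of all genes) and 5 below. Without Krt15-negative replicate 1, 7 lay above 0 (53.8%, against 50.9% of all genes). Epas1, which encodes HIF-2 alpha, stood at 59.2, 0.293 and 5.69 FPKM in Krt15-positive libraries, against 0.013, 0 and 1.56 FPKM in Krt15-negative ones, so that 1 library held most of its signal. Arnt, the partner subunit of both HIF alpha proteins, stood at 3.39, 5.70 and 8.08 FPKM in Krt15-positive libraries, against 0, 4.86 and 3.62 FPKM in Krt15-negative ones (difference 1.10, or 0.31 without Krt15-negative replicate 1). Crebbp, a histone acetyltransferase and HIF coactivator, stood at 2.19, 0.444 and 1.04 FPKM in Krt15-positive libraries, against 11.1, 4.19 and 4.01 FPKM in Krt15-negative ones. It was the only tested gene of the 5 lists with all Krt15-positive values below the Krt15-negative ones (difference -1.69, SE 1.05, limma adjusted p = 0.79). That is 1 of 81 tested genes, against 2.44% of all genes. All Krt15-positive values lay above the Krt15-negative ones for 3 of the 81, against 8.85% of all genes. Rbx1 and Siah2, which act in ubiquitin ligases, had differences of -0.83 (SE 0.57) and -0.49 (SE 1.23), and Os9, a lectin of the endoplasmic reticulum, had one of 0.77 (SE 1.20). Without Krt15-negative replicate 1 these 3 differences were -0.40, -1.09 and -0.096.

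Among 21 other glycolysis genes tested, 15 lay above 0 (71.4%, against 68.6% of all genes). Without Krt15-negative replicate 1, 9 did (42.9%, against 50.9% of all genes). Pfkm, the muscle-type phosphofructokinase gene, stood at 1.40, 6.07 and 6.32 FPKM in Krt15-positive libraries, against 0, 0 and 0.725 FPKM in Krt15-negative ones (difference 2.06, SE 0.95, limma adjusted p = 0.79). Eno3, the muscle enolase gene, stood at 8.12, 2.89 and 0.0235 FPKM in Krt15-positive libraries and was listed at 0 in all Krt15-negative ones. Galm, the galactose mutarotase gene, had a difference of 1.38 (SE 0.86), while Minpp1, Ldhd and G6pc3 lay at -0.98 (SE 1.31), -0.97 (SE 1.27) and -0.49 (SE 1.35).

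Of 12 tested genes of pyruvate entry, 10 lay above 0 (83.3%, against 68.6% of all genes). The pyruvate carrier gene Mpc1 stood at 167, 128 and 86.8 FPKM in Krt15-positive libraries, against 0.043, 118 and 192 FPKM in Krt15-negative ones, and its partner Mpc2 at 468, 220 and 211 FPKM in Krt15-positive libraries, against 314, 299 and 338 FPKM in Krt15-negative ones. The differences were 2.10 for Mpc1 (SE 1.63) and -0.18 for Mpc2 (SE 0.54), or -0.29 and -0.19 without Krt15-negative replicate 1. Pdhb and Pdha1 of pyruvate dehydrogenase differed by 1.82 (SE 1.60) and -0.15 (SE 1.03), or by -0.43 and -0.60 without Krt15-negative replicate 1, and the kinase gene Pdk2 by 1.14 (SE 0.92). Without that library 5 of the 12 genes of pyruvate entry lay above 0 (41.7%, against 50.9% of all genes). Of 14 tested mitophagy partners, 11 lay above 0 (78.6%, against 68.6% of all genes). Without Krt15-negative replicate 1, 8 did (57.1%, against 50.9% of all genes). Becn1, an initiator of autophagy, stood at 45.4, 79.0 and 59.0 FPKM in Krt15-positive libraries, against 0.0174, 26.6 and 62.9 FPKM in Krt15-negative ones. The autophagy receptor gene Sqstm1 and Fundc1, another mitophagy receptor gene, differed by 2.11 (SE 1.43) and 1.87 (SE 1.34). Without Krt15-negative replicate 1 the differences were 0.53 for Becn1, 0.29 for Sqstm1 and 0.44 for Fundc1. Gabarap, Gabarapl1 and Atg5 had differences of -0.51, -0.12 and -0.17, or -0.32, -1.38 and -0.30 without it. Sqstm1, Becn1, Mpc1 and Pdhb were each below 0.05 FPKM in Krt15-negative replicate 1.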

How the data were processed

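The deposited table holds 1 value per gene and library, 1 column per library. The authors call the values counts, but they are not whole and the smallest of them fall with transcript length, so they were read as FPKM and no count test was used. The submitters' processing notes name the mm9 build, Cufflinks 2.2.1, STAR 2.5 and DESeq2, without saying which step each served. The annotation is not stated there. The labels' protocols describe cDNA from whole cells by a SMART-Seq v4 kit, which does not mark strand. In GENCODE M21, 10 of the 32 genes share exon sequence with a gene on the other strand (Slc2a1, Bnip3, Hif1a, Ndrg1, Gpi1, Pfkp, Aldoa, Tpi1, Car9 and Ankrd37). Reads from the shared stretches cannot be told apart, and the length of these stretches was not measured. Pkm and Hif1a also share exon sequence with a gene on the same strand.

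Of 24043 rows, 27 whose symbols had become dates were left out. Values were analysed as log2(FPKM + 1), which understates the change of low genes. Genes whose mean reached 1 FPKM were tested with limma 3.58.1 (R 4.3.3) with a mean-variance trend, on all 6 libraries and with no term but group, 2-sided, with Benjamini-Hochberg adjustment over all 9423 genes and a threshold of 0.05. The fit was checked on simulated data, where its estimates followed the differences put in but few of the changed genes passed the threshold, so a gene that did not pass is not shown to be equal. Depth was estimated from 2172 genes that have 1 annotated transcript, 1500 bp or longer, by the FPKM times length that 1 fragment gives, and is approximate, since 33 to 71 genes a library stood at that step. No counting interval is given. Fragments per gene were estimated from its longest coding transcript.

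The genes and lists were chosen with earlier results of these data known. All 32 were named, as were the 3 genes of smallest p in each direction in each wider list. The 123 symbols of these lists all had a row, 1 of them under a synonym. Nothing in the labels ties each library to its own animal, so the p-values rest on a spread between libraries that may be technical. Alternatives were another pseudocount (0.1 or 5), no filter, a mean of at least 10 FPKM, 3 other scalings, library weights, a replicate block and leaving out libraries.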

Additional observations from a re-analysis of the deposited data

How the results depend on the processing

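No gene was called in any setting that left out libraries, changed the pseudocount, filter or scaling, or added a block. Library weights called 8 genes, none of them among the 32. The labels number the replicates alike in both groups, and libraries with the same number also share a code in their sample names. The labels do not say whether that code marks an animal or a sort, so the libraries may be paired. The deviations of libraries with the same number from their group means correlated at 0.13, 0.17 and 0.0089 over 9423 genes. Those of libraries with different numbers correlated at -0.16 to 0.029. Krt15-positive replicate 3 did not correlate best with its own number (0.0089, against 0.018 with Krt15-negative replicate 1). Over the 29 tested genes the same-number correlations were 0.058, 0.40 and 0.011, and the others lay between -0.26 and 0.14. Between libraries of the same number, Slc2a1, Bnip3, P4ha1, Egln1, Hif1a, Pkm and Pdk1 were higher in the Krt15-positive one each time. Gpi1, Aldoa and Ldha were lower each time. Vhl was higher in 2 and equal at 0 in replicate 3, and the remaining tested genes did not keep a single direction. Pdk1 and Vhl reached the mean of 1 FPKM only through the Krt15-positive libraries. How often this happens over all genes was not counted, so these directions only describe. With all 6 libraries, 68.6% of all genes had a difference above 0. The replicate block cannot move a difference in this balanced design, only its error. With the block 0 genes were called by limma. The SE was 1.20 for Bnip3 (4.02), 1.16 for Slc2a1 (3.38), 1.08 for P4ha1 (2.23), 1.07 for Egln1 (1.37) and 0.35 for Aldoa (-0.20), and the limma adjusted p was 0.74 for Bnip3, Slc2a1 and P4ha1.

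The differences of Bnip3, Slc2a1 and P4ha1 stayed above 0 in every setting tried. Others turned sign. With library weights these were Gpi1 (0.28), Pfkp (0.42), Tpi1 (-0.48), Pgam1 (-0.35), Eno1 (-0.53) and Egln3 (-0.21). With quantile normalization they were Hk2 (-0.55), Pfkfb4 (-0.050), Aldoa (0.035), Vegfa (-0.48) and Egln3 (-0.33). With upper-quartile scaling they were Tpi1 (-0.30), Eno1 (-0.30) and Egln3 (-0.29), with median-of-ratios scaling Tpi1 (-0.33), Eno1 (-0.33) and Egln3 (-0.23), and with a pseudocount of 5 Egln3 (-0.082). Without both replicate 1 libraries they were Pfkp (0.51), Pfkfb4 (-0.46), Tpi1 (-0.26), Pgam1 (-0.042) and Eno1 (-0.22), and the ratios of Hk2 to Hk1 (0.25), Pfkfb3 to Pfkfb4 (0.40) and Egln3 to Egln1 (1.09).

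Leaving out 1 library gave ranges that crossed 0 for Pfkl (-0.011 to 2.02), Pfkp (-1.02 to 0.19), Pfkfb4 (-0.097 to 1.22), Aldoa (-0.48 to 0.11), Tpi1 (-0.56 to 0.53), Pgam1 (-0.60 to 1.53), Eno1 (-0.82 to 0.78), Pkm (-0.25 to 1.98), Ldha (-0.84 to 0.0099), Vegfa (-0.41 to 1.10) and Egln3 (-1.42 to 1.60). The same held for the ratios of Hk2 to Hk1 (-1.08 to 0.59), Pfkfb3 to Pfkfb4 (-1.28 to 0.10) and Egln3 to Egln1 (-3.18 to 0.74). The cause was not tested. Over all genes the median difference, 0.63, shifted to 0.48 with upper-quartile scaling, 0.43 with median-of-ratios scaling, 0.038 with quantile normalization and 0.021 without Krt15-negative replicate 1, and that of the 29 genes, 0.58, was 0.32, 0.29, 0.035 and -0.056.

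At an unadjusted limma p below 0.05, the 29 genes gave 2 higher and 0 lower ones with all libraries. In the other settings they gave 1 to 3 higher and 0 or 1 lower ones. The counts over all 9423 genes moved as well, from 300 higher and 70 lower in the main fit. They were 495 and 348 with library weights, and 672 and 46 without Krt15-negative replicate 3. With the filter raised to 10 FPKM, 21 of 4187 genes were higher and 30 lower. Of the 32 genes, 20 were tested there, with 2 higher and 0 lower. The member counts therefore only describe. Values listed at 0 and 3 libraries a group limit what can be seen for low genes such as Pfkfb3, Slc16a3, Car9 and Vhl.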
